A study of Parasteatoda tepidariorum with 2 samples.

Results

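At stage 7 the embryo of the spider *Parasteatoda tepidariorum* is an early germ band, a sheet of cells along which head, thorax (the region that bears the walking legs) and opisthosoma are laid out in order. *Pt-BarH1* nuclei were taken from it as the nuclei with 3 or more molecules of *Pt-BarH1* (LOC107456035), at most 2 of *Pt-otd*, at most 2 of *Pt-six3-1*, at most 1 of *Pt-twist* and at most 4 of *At_eW_012_A08*. *Pt-otd* and *Pt-six3-1* mark head ectoderm, *Pt-twist* marks mesoderm and *At_eW_012_A08* marks endoderm and extraembryonic cells. This gave 345 nuclei, 5.53% of the 6239 filtered nuclei and a small share of the 7104 filtered barcodes of nuclei and cells together. They were set against 4462 comparison nuclei, which held 0 molecules of *Pt-BarH1* and met the limits on *Pt-twist* and *At_eW_012_A08*.

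The study asked how the body axis and its stripes can be read from the RNA of single nuclei and cells. Wild-type (WT) embryos of a laboratory stock, with no treatment named in the labels, gave 1 library of nuclei (stage-7_nucleus, 20 whole embryos) and 1 library of dissociated cells (stage-7_cell, 15 whole embryos), each made from a different egg sac. A library of late stage-5 nuclei from an earlier series, 4820 nuclei from an earlier stage in the same species, was filtered again by the authors. With 1 library per condition, nuclei are not replicates, no difference was tested, and every interval below covers counting error only.

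Bar genes encode homeodomain transcription factors, and in *Drosophila* they act in the eye, in sensory organs and in the outer segments of the leg. In arthropod embryos, Hox genes such as *labial* mark successive segments, whereas signalling through the Hedgehog, Wnt and Notch pathways sets and refines the borders between stripes of cells. T-box genes of the *H15* group act in ventral patterning of the *Drosophila* leg.

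The *Pt-BarH1* nuclei held between 4644 and 19954 molecules with a median of 10265, and the comparison nuclei had a median of 9922.5. *Pt-BarH1* itself, which chose the nuclei, ranged from 3 to 33 molecules with a median of 7, and these nuclei held 3026 of its 4042 molecules in the library. Of the 400 nuclei with 3 or more molecules, 38 were over the limit on *Pt-twist*, 18 over that on *Pt-otd*, 3 over that on *Pt-six3-1* and 1 over that on *At_eW_012_A08*, and a nucleus can fail more than 1 limit. Just inside the threshold lay 59 nuclei with exactly 3 molecules, and just outside lay 97 nuclei with exactly 2. A further 68 barcodes that the authors' filter had removed also met the rule. The nucleus and cell libraries shared 6 barcode sequences, the nucleus and late stage-5 libraries shared 33, and 0 of the *Pt-BarH1* nuclei were among them.

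The nuclei were labelled as anterior thorax, and the markers of the body regions were read first. The thoracic marker *Pt-gas1* (its vertebrate relative Gas1 binds Hedgehog at the cell surface) was at 0.130 molecules per 10000 molecules (95% interval 0.0960–0.172) in the *Pt-BarH1* nuclei and at 0.832 (0.806–0.858) in the comparison nuclei, a ratio of 0.156. The other thoracic marker, the Hox gene *Pt-scr-A*, was at 0.0953 and 0.437, a ratio of 0.218. Nuclei with *Pt-scr-A* were labelled as posterior thorax. Thoracic markers were therefore low, not high, in these nuclei, but a low posterior marker cannot tell anterior thorax from other regions.

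Opisthosomal markers were low too. *Pt-AP2-A*, an AP2 transcription factor gene, was at 0.289 against 1.91, and *Pt-eve*, the spider relative of *even-skipped*, at 0.273 against 1.07. LOC107447499, a non-coding RNA, was at 0.326 against 0.855, and 1 nucleus with 53 molecules held much of its 123 molecules. The head marker *Pt-gsc*, a homeobox gene that the rule did not use, was at 0.0371 against 0.351. Low levels of *Pt-otd* and *Pt-six3-1* followed in part from the rule. The comparison nuclei had no limit on either gene and so kept head nuclei, and the rule therefore bears on the ratio of *Pt-gsc* too.

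In the whole marker set, 7 of the 8 body-region markers outside the rule had at most 0.5 times the level of the comparison nuclei, and 0 had at least 2 times that level. Among all 10525 genes with 200 or more molecules in the library, 3.24% were at or below 0.5 times and 0.580% at or above 2 times. The exception was *Pt-osr-B* (an *odd-skipped*-related zinc finger gene), at 0.540 against 0.347, a ratio of 1.56. The markers thus did not place these nuclei in the thorax by name, and they are called *Pt-BarH1* nuclei here. Their position in the embryo was not measured here. The study itself placed ectoderm nuclei along a head-to-tail axis rebuilt from this library and gave a profile for each gene. It also set the *Pt-BarH1* profile beside staining of late stage-5 embryos. Those positions and profiles were not used to place the *Pt-BarH1* nuclei.

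Markers of other germ layers were read next, although the rule itself capped *Pt-twist* and *At_eW_012_A08*, so the levels of these genes are a description only. *Pt-twist* was at 0.0795 per 10000 molecules in the *Pt-BarH1* nuclei, against 3.82 in 317 nuclei with 3 or more molecules of it. The 5 endoderm and extraembryonic markers summed to 2.67 in the *Pt-BarH1* nuclei, to 4.29 in the comparison nuclei and to 31.3 in 280 nuclei with 20 or more molecules of *At_eW_012_A08*, and none of the 5 was at 0. Most of that sum in the *Pt-BarH1* nuclei came from *Pt-GATA1*, which the rule did not use, at 2.08 against 3.43 in the comparison nuclei and 1.42 in the nuclei rich in *At_eW_012_A08*. Of the 4 such markers outside the rule, 2 were at or below 0.5 times the comparison level and 2 lay between the folds. Of all genes, 3.24% were at or below 0.5 times. The 5 leading markers of nucleus cluster 3 summed to 3.25 in the *Pt-BarH1* nuclei and to 6.05 in the comparison nuclei. Their sum was 60.6 in the nuclei rich in *At_eW_012_A08*, and 0 of the 5 were at 0 in any of these groups. The study chose these markers on the same library. It reported fewer genes and molecules per nucleus in that cluster than in the others, and markers that were not specific to it. The authors treated the cluster as a possible pseudocluster and left it out of later steps. Here the comparison nuclei were chosen without cluster labels, so nuclei of that cluster were not removed.

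Compared with the comparison nuclei, 61 genes had at least 2 times the level in the *Pt-BarH1* nuclei and 341 had at most 0.5 times, of which 15 had 0 molecules in the *Pt-BarH1* nuclei. The median ratio over all genes was 1.01. Counting intervals lay wholly above 1 for 58 of the 61 and wholly below 1 for 274 of the 341. Among genes with 1000 or more molecules in the library, 21 were at least 2 times higher and 137 were at or below 0.5 times. *Pt-BarH1* was left out of these counts.

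*Pt-h15-1*, a T-box transcription factor gene, had the highest ratio of all. Per nucleus it ranged from 0 to 70 molecules with a median of 9, and 88.7% of the *Pt-BarH1* nuclei (76.2% after thinning each nucleus to 3000 molecules) held it, against 25.8% (14.1% after thinning) of the comparison nuclei. Its pooled level was 12.0 molecules per 10000 (11.7–12.4) against 1.14 (1.11–1.17), a ratio of 10.6 (10.1–11.0). Nuclei rich in markers of other germ layers held it too. It was at 5.07 in the 280 nuclei rich in *At_eW_012_A08* (median 14663 molecules) and at 2.31 in the 317 rich in *Pt-twist* (median 13301). These sets held 22 and 202 molecules of *Pt-BarH1*, with up to 2 and 13 in a nucleus. The part of such nuclei in the 2 levels was not tested. The neighbour of *Pt-h15-1* on the genome in assembly CAS_Ptep_4.0, the T-box gene *Pt-tbx20-A*, was at 0.344 against 0.226, a ratio of 1.52.

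*Pt-Notch*, the receptor gene of the Notch pathway, was found in nearly all of these nuclei. It ranged from 0 to 82 molecules per nucleus with a median of 22, and was found in 97.4% of the *Pt-BarH1* nuclei and 78.0% of the comparison nuclei (91.9% and 48.0% after thinning). The level was 21.4 (20.9–21.8) against 3.63 (3.57–3.68), a ratio of 5.89. The deeper nuclei rich in *At_eW_012_A08* held it in 86.1% and at a level of 6.51, so the share of nuclei separated these groups less than the level did.

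The plot of levels by *Pt-BarH1* count shows that both genes followed the count across the threshold. *Pt-h15-1* was at 1.29, 3.07 and 6.01 in nuclei with 0, 1 and 2 molecules of *Pt-BarH1*, and at 7.49, 11.3, 11.5 and 15.1 in those with 3, 4 to 5, 6 to 9 and 10 or more. *Pt-Notch* went from 4.08 at 0 molecules through 9.54 at 2 and 15.6 at 3 to 25.6 at 10 or more. Median depth moved little with the count, from 9574 molecules at 0 to 10620 at 10 or more. The level of *Pt-gas1* was 0.969 at 0 molecules, 0.255 at 2 and 0.0679 at 10 or more.

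**Figure D1:**
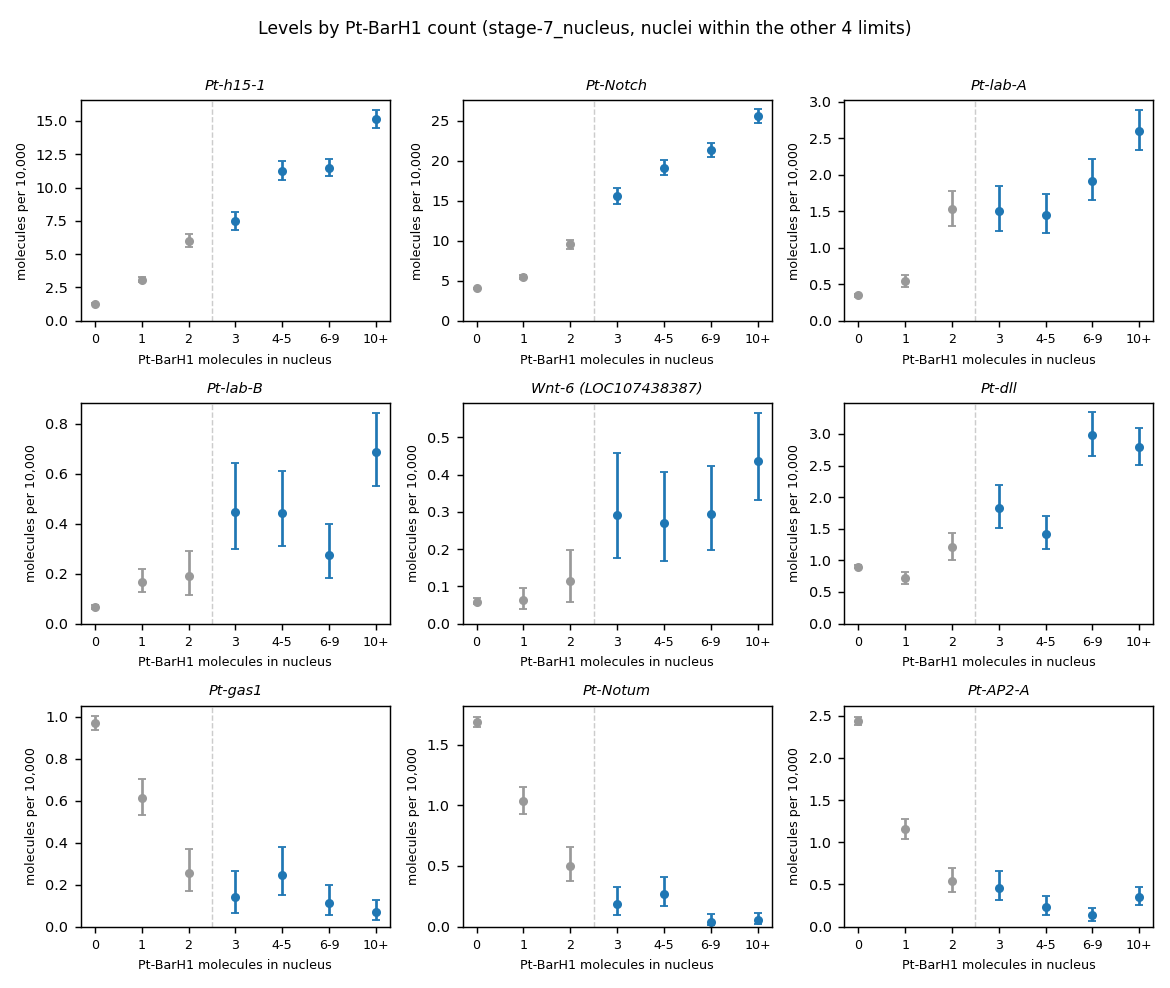
Pooled level (molecules per 10000 molecules, y axis) of 9 genes in stage-7 nuclei grouped by their number of *Pt-BarH1* molecules (x axis). Points are pooled levels, bars are exact 95% Poisson intervals for counting error, blue marks the *Pt-BarH1* nuclei and grey the nuclei below 3 molecules, which all met the other 4 limits. *Pt-h15-1* went from 1.29 to 15.1 and *Pt-Notch* from 4.08 to 25.6 between the first and the last group, whereas *Pt-Notum* went from 1.69 to 0.0528.

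Nuclei just below the threshold differed in another way as well. The 5 markers of cluster 3 summed to 12.5 and 13.3 in nuclei with 1 and 2 molecules of *Pt-BarH1*, but to between 2.82 and 3.87 in the 4 groups with 3 or more. The part of these markers in the levels at 1 and 2 molecules was not tested. With only nuclei that held fewer than 10 of these marker molecules, an alternative chosen after seeing the data, 308 *Pt-BarH1* nuclei remained, and 71 genes were at least 2 times higher and 305 at or below 0.5 times.

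Of the Hox genes, only the *labial* pair was high among the 10 that were measured. *Pt-lab-A*, 1 of the 2 spider relatives of *labial*, was held by 51.9% of the *Pt-BarH1* nuclei, with up to 20 molecules in a nucleus, and by 12.3% of the comparison nuclei (35.7% and 6.48% after thinning). Its level was 1.99 (1.85–2.13) against 0.348 (0.332–0.366), a ratio of 5.70. *Pt-lab-B* was at 0.485 (0.417–0.560) against 0.0747 (0.0671–0.0829), a ratio of 6.49. Nuclei rich in *Pt-twist* also held *Pt-lab-A*, at 1.37, whereas those rich in *At_eW_012_A08* held it at 0.0277. The former held 202 molecules of *Pt-BarH1* and the latter 22, and their part in these levels was not tested.

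The other 8 Hox genes all had at most 0.5 times the level of the comparison nuclei, and the median ratio of the 10 was 0.212. Of all genes, 3.24% were at or below 0.5 times. *Pt-pb-A*, the relative of *proboscipedia*, was at 0.0503 against 0.144. *Pt-ftz* was at 0.967 (0.870–1.07) against 4.91 (4.84–4.97), and *Pt-AbdB-B*, of the *Abdominal-B* type, at 0.0715 against 0.676. The lowest ratios, 0.106 for *Pt-AbdB-B* and 0.125 for *Pt-antp-A*, rested on 27 and 5 molecules in the *Pt-BarH1* nuclei.

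Of the genes for Hox cofactors, Meis1 (LOC107450063), whose fly relative *homothorax* acts with *extradenticle*, was at 4.75 (4.54–4.98) against 2.37, a ratio of 2.00. One *extradenticle* copy (LOC107439046) was at 1.07 against 0.544, a ratio of 1.96, and the other (LOC107449226) at 0.718 against 0.812. The copies are near relatives, and reads that match both could have been split between them.

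Limb genes stood mostly above the comparison level, as the plot of ratios by gene list shows. Of 8 listed limb and proximodistal genes, 3 were at least 2 times higher and 0 were at or below 0.5 times. The shares over all genes were 0.580% and 3.24%. Their median ratio was 1.85. This list, used again below, includes the 3 Hox cofactor genes above, so the counts overlap. The 3 higher genes were *Pt-h15-1*, *Pt-dll* and Meis1. *Pt-dll*, the relative of *Distal-less* that marks outgrowing limbs, was held by 55.4% of the *Pt-BarH1* nuclei (35.1% after thinning) with up to 26 molecules, and by 30.7% of the comparison nuclei. Its level was 2.38 (2.23–2.54) against 0.896, a ratio of 2.66. *Pt-sp6-9*, a zinc finger gene of limb growth in arthropods, was at 6.38 (6.13–6.64) against 3.66, a ratio of 1.75.

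**Figure D2:**
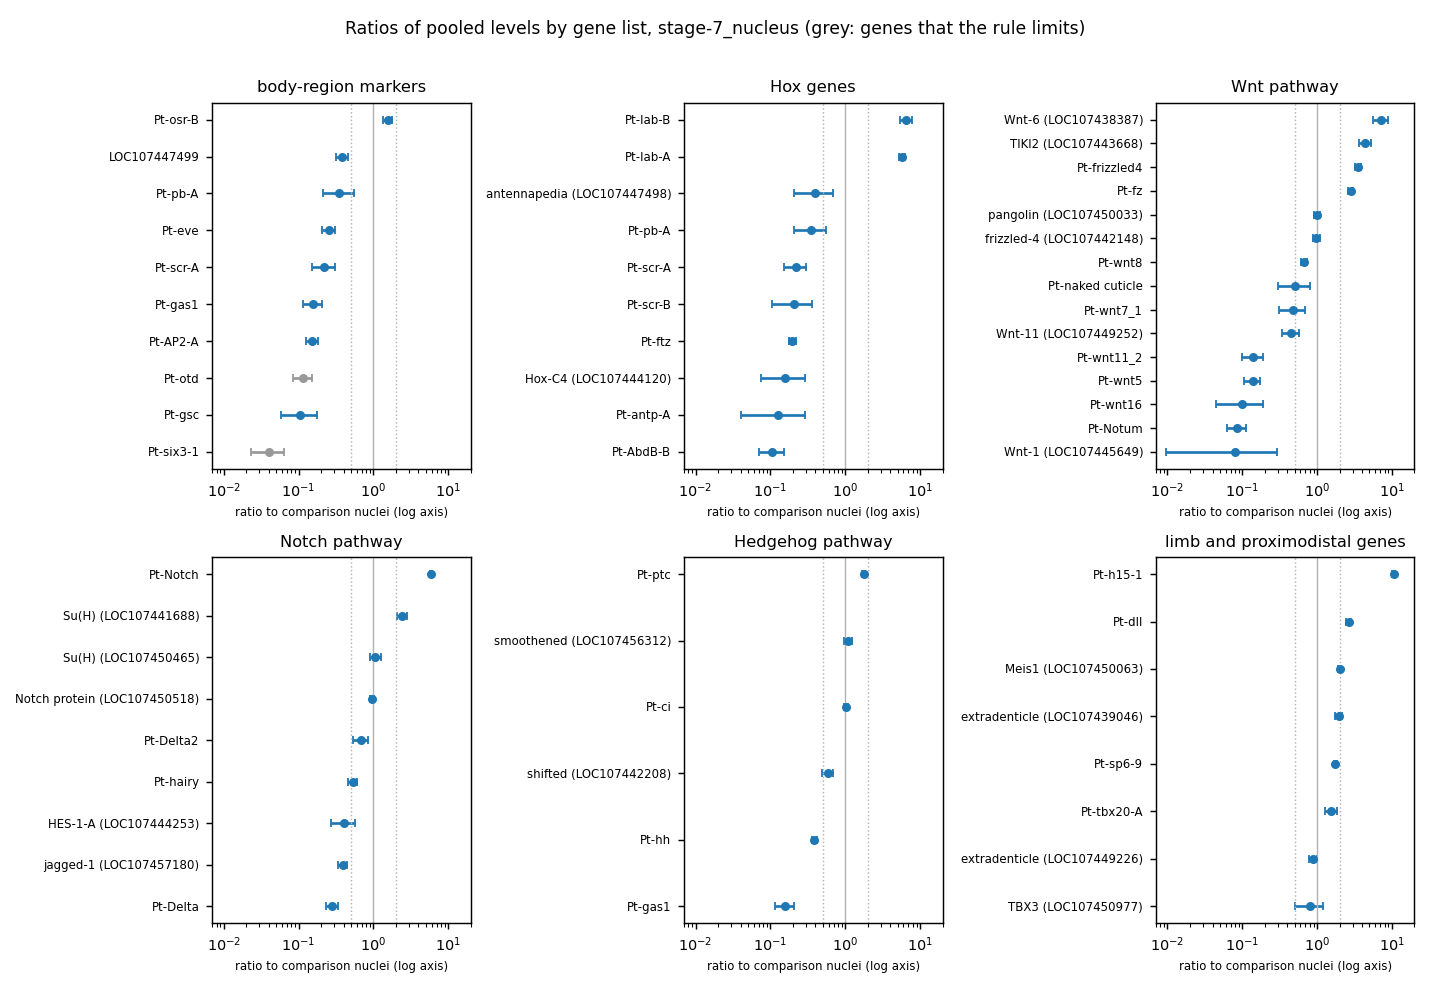
Ratio of the pooled level in the *Pt-BarH1* nuclei to that in the comparison nuclei (x axis, log scale) for the genes of 6 lists, 1 gene per row. Bars are exact 95% intervals for counting error, dotted lines mark ratios of 0.5 and 2, and grey points are genes that the rule limits. *Pt-lab-A* and *Pt-lab-B* stand at 5.70 and 6.49 above the other 8 Hox genes, and *Pt-Notch* and *Pt-h15-1* at 5.89 and 10.6 head their lists.

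In the Wnt pathway, ligands fell on both sides. Wnt-6 (LOC107438387) was held by 18.8% of the *Pt-BarH1* nuclei (8.99% after thinning) with up to 8 molecules, by 3.72% of the comparison nuclei and by 2.14% of the deeper nuclei rich in *At_eW_012_A08*. Its level was 0.339 (0.283–0.403) against 0.0477 (0.0417–0.0543), a ratio of 7.11. LOC107438386, which lies next to it in CAS_Ptep_4.0, was at 0.201 against 0.0304, a ratio of 6.62.

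The other Wnt ligands were low or near the comparison level. *Pt-wnt5* was at 0.185 (0.145–0.234) against 1.35, *Pt-wnt11_2* at 0.103 against 0.739 and *Pt-wnt16* at 0.0238 against 0.241. Wnt-1 (LOC107445649) had 2 molecules in the *Pt-BarH1* nuclei, a ratio of 0.0789 with a counting interval of 0.00952–0.287. *Pt-wnt8*, at 1.31 against 1.98, did not pass either fold.

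Among Wnt receptors, *Pt-frizzled4* was at 1.34 (1.22–1.46) against 0.379, a ratio of 3.53, and *Pt-fz* at 2.40 (2.25–2.56) against 0.849, a ratio of 2.83. A second frizzled-4 gene (LOC107442148) had a ratio of 0.972. The secreted or membrane-bound Wnt inhibitors went in opposite directions. TIKI2 (LOC107443668), a protease that cleaves Wnt proteins, was at 0.432 against 0.0992, a ratio of 4.35, while *Pt-Notum*, an enzyme that removes their lipid, was at 0.119 (0.0869–0.160) against 1.41 (1.38–1.44), a ratio of 0.0845. Of the 15 Wnt pathway genes, 4 were at least 2 times higher and 7 were at or below 0.5 times, with a median ratio of 0.502. The shares over all genes were 0.580% and 3.24%.

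Notch ligands and receptor differed in direction. *Pt-Delta* was at 0.286 (0.235–0.345) against 1.02, jagged-1 (LOC107457180) at 0.670 against 1.73 and *Pt-Delta2* at 0.207 against 0.304. One gene for Suppressor of Hairless (LOC107441688), the DNA-binding partner of the Notch intracellular domain, was at 0.511 (0.442–0.589) against 0.211, a ratio of 2.42, and the other (LOC107450465) had a ratio of 1.06. Genes of the hairy family did not share the high level of the receptor: *Pt-hairy* was at 0.609 against 1.14 and HES-1-A (LOC107444253) at 0.0848 against 0.212. Whether Notch acts on either gene in these nuclei was not tested. In all, 2 of 9 Notch pathway genes were at least 2 times higher and 3 were at or below 0.5 times, with a median ratio of 0.680. Among all genes these shares were 0.580% and 3.24%.

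In the Hedgehog pathway, the ligand gene *Pt-hh* ranged from 0 to 48 molecules per nucleus and was at 1.86 (1.72–2.00) against 4.82 (4.75–4.88). The receptor gene *Pt-ptc*, itself a common target of the pathway, was at 3.21 (3.03–3.40) against 1.83, a ratio of 1.76. Signal transducers lay near 1, with ratios of 1.10 for smoothened (LOC107456312) and 1.04 for *Pt-ci*. Of the 6 genes, 0 were at least 2 times higher and 2 were at or below 0.5 times. All genes together gave 0.580% and 3.24%.

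BMP pathway genes were near or below the comparison level. *Pt-sog*, a BMP antagonist, was at 9.49 (9.18–9.81) against 7.06, a ratio of 1.34, *Pt-dpp*, the ligand, at 2.90 against 4.03, and *Pt-BAMBI1*, a decoy receptor gene, at 0.967 against 2.84. Of the 5 genes, only *Pt-BAMBI1* passed a fold, and downwards, as did 3.24% of all genes.

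Stripe genes lay largely between the folds or below them. Of 18 measured stripe and segmentation genes, 7 were at or below 0.5 times, 10 lay between the folds and 1, *Pt-prd1*, was at least 2 times higher, at 0.0848 (0.0580–0.120) against 0.0291. Among all genes, 3.24% were at or below 0.5 times and 0.580% at least 2 times higher. *Pt-msx1* was at 0.209 against 0.811, and *Pt-mirr4*, of the Iroquois family, at 0.532 (0.461–0.611) against 2.93. *Pt-prd2*, a relative of *paired*, was at 0.281 against 0.834 and *Pt-runx-B* at 0.180 against 0.699. *Pt-hb*, the relative of the gap gene *hunchback*, did not follow them, at 2.81 (2.64–2.98) against 1.46. *Pt-kru-1*, the listed gene that was too rare to compare, had 1 molecule in these nuclei.

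Genes of the cell surface fell on both sides. *Pt-latrophilin-B*, an adhesion receptor gene, ranged up to 122 molecules per nucleus with a median of 33 and was found in 98.6% of the *Pt-BarH1* nuclei. The level was 32.7 (32.1–33.3) against 10.9 (10.8–11.0), a ratio of 3.01. Roundabout homolog 1 (LOC107447205), a receptor for Slit, was at 2.47 against 1.07, a ratio of 2.30. Tollo (LOC107454132), a Toll-type receptor gene that acts in tissue elongation in *Drosophila*, was at 0.961 against 3.12. The list held 11 genes, of which 2 were at least 2 times higher and 3 were at or below 0.5 times. The shares over all genes were 0.580% and 3.24%.

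Genes outside the lists also ranked among the 20 highest ratios. LOC107443270 was at 0.275 (0.225–0.334) against 0.0272, a ratio of 10.1, and an agrin-like gene (LOC122271476) at 0.305 against 0.0386, a ratio of 7.89. FoxB1-like (LOC107443349), a forkhead transcription factor gene, was at 0.363 against 0.0975, and ESC1 (LOC107453671) at 0.471 against 0.145. LOC107436289 had a ratio of 4.39 but was found in only 4.06% of the *Pt-BarH1* nuclei, and LOC107444647 rested on 5 molecules.

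The lowest ratios belonged to genes that were nearly absent. NELL2 (LOC107443983), the nuclear receptor gene NR2E1 (LOC107444665) and the protease gene MMP21 (LOC107453701) each had 3 molecules in the *Pt-BarH1* nuclei, with ratios of 0.0298 (0.00614–0.0873), 0.0304 (0.00627–0.0892) and 0.0327 (0.00674–0.0959). A Pax-6 gene (LOC107436595), an eye and head gene in many animals, had 1 molecule and a ratio of 0.0361 (0.000910–0.202). In the comparison nuclei, NR2E1 was found in 14.1% and Pax-6 in 5.31%. Those nuclei had no limit on *Pt-otd* or *Pt-six3-1* and so kept head nuclei.

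*Pt-BarH1* nuclei were next set beside nuclei with 3 or more molecules of *Pt-pb-A* (61 nuclei), *Pt-osr-B* (228), *Pt-scr-A* (267) or *Pt-otd* (653), each with at most 2 molecules of *Pt-BarH1* and within the limits on *Pt-twist* and *At_eW_012_A08*. A nucleus can belong to more than 1 of these sets and to the comparison nuclei. The genes that chose each set are not results between them.

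Among these sets, *Pt-osr-B* nuclei had the highest levels of *Pt-Notch* and *Pt-h15-1*. *Pt-Notch* was at 9.56 (9.18–9.95) in them, at 2.72 in *Pt-pb-A* nuclei, at 2.43 in *Pt-scr-A* nuclei and at 2.29 in *Pt-otd* nuclei, all below the 21.4 of the *Pt-BarH1* nuclei. *Pt-h15-1* followed the same order at the top, at 3.63 in *Pt-osr-B* nuclei, 1.55 in *Pt-pb-A* nuclei, 0.974 in *Pt-otd* nuclei and 0.460 in *Pt-scr-A* nuclei. These 2 genes were already high against nuclei without *Pt-BarH1*, and the other sets were capped at 2 molecules of it. Within that cap, the 228 *Pt-osr-B* nuclei held 38 molecules of *Pt-BarH1* and the 61 *Pt-pb-A* nuclei held 5. The 267 *Pt-scr-A* nuclei held 10 and the 653 *Pt-otd* nuclei held 59. The study described *Pt-osr-B* expression in separate domains of the embryo, so the *Pt-osr-B* set can mix regions. The part of the *Pt-BarH1* molecules or of such a mix in these levels was not tested. *Pt-latrophilin-B* was at 17.0 in *Pt-osr-B* nuclei and at 4.90 in *Pt-scr-A* nuclei.

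**Figure D3:**
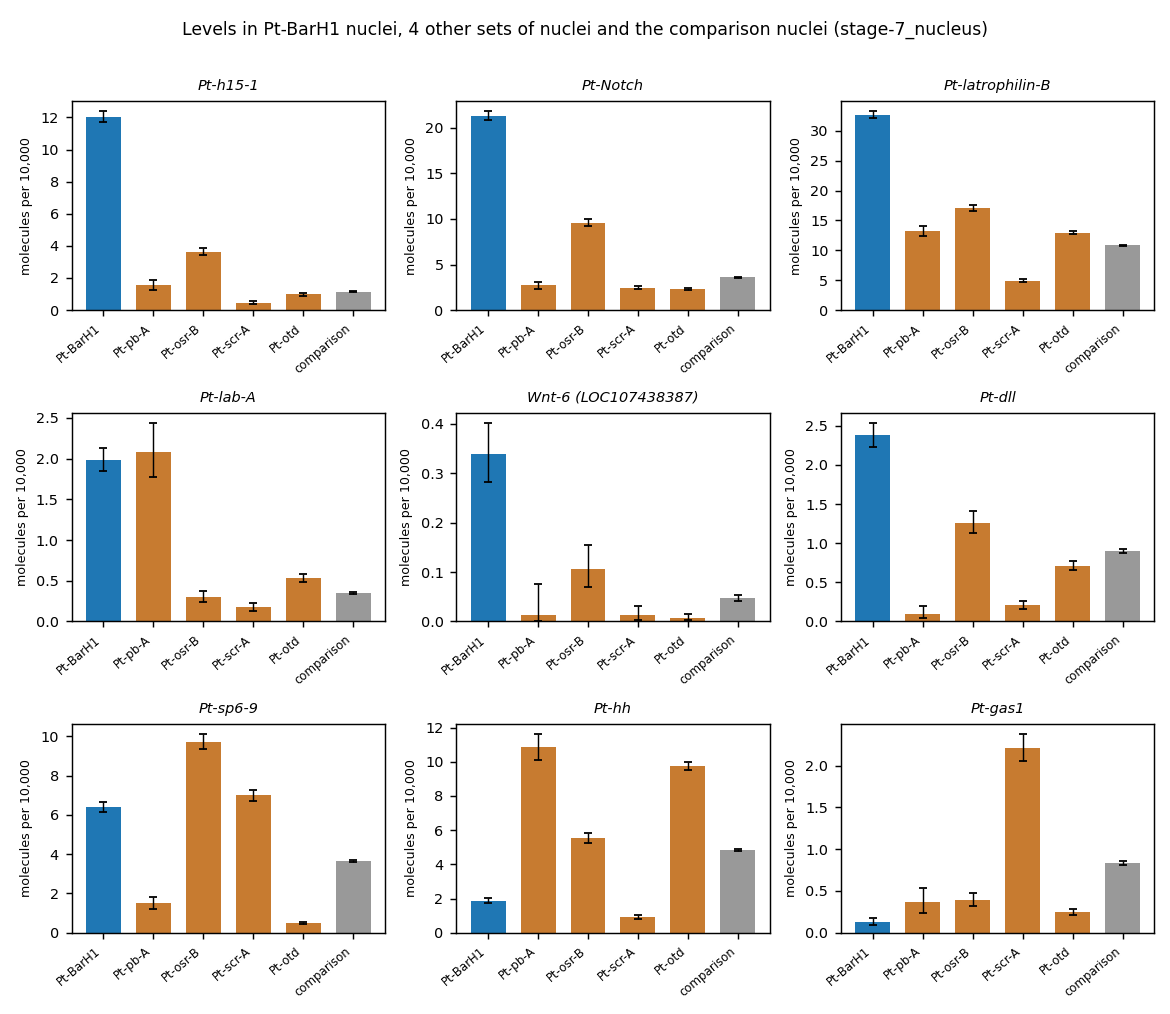
Pooled level (molecules per 10000 molecules, y axis) of 9 genes in the *Pt-BarH1* nuclei (blue), in nuclei with 3 or more molecules of *Pt-pb-A*, *Pt-osr-B*, *Pt-scr-A* or *Pt-otd* (orange) and in the comparison nuclei (grey). Bars carry exact 95% Poisson intervals for counting error. *Pt-lab-A* reached 1.99 and 2.09 in *Pt-BarH1* and *Pt-pb-A* nuclei, and *Pt-gas1* stood at 2.21 in *Pt-scr-A* nuclei against 0.130 in *Pt-BarH1* nuclei.

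*Pt-lab-A* had close levels in the *Pt-BarH1* and the *Pt-pb-A* nuclei. It was at 1.99 in the former and 2.09 (1.77–2.44) in the latter, a ratio of 0.952 (0.799–1.14), and at 0.534, 0.301 and 0.171 in *Pt-otd*, *Pt-osr-B* and *Pt-scr-A* nuclei. *Pt-lab-B* gave the same picture, with 0.485 and 0.529, a ratio of 0.917 (0.646–1.33). The interval of neither ratio reached 2 or 0.5. Of the 8 limb genes, 4 were at least 2 times higher in the *Pt-BarH1* nuclei and 0 at or below 0.5 times, and of the 15 Wnt pathway genes 4 were higher and 4 lower by this fold, against 8.39% and 2.99% of all genes, many on few molecules because the set holds 61 nuclei. *Pt-dll* was at 0.0949 in *Pt-pb-A* nuclei (7 molecules, ratio 25.1), and *Pt-wnt8* had 2 molecules there (ratio 48.5, 13.3–401). LOC107438386 had 0 molecules in *Pt-pb-A* nuclei, and with the floor of 3 molecules put in their place its ratio was 4.95, which is not a lower limit.

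The ligand genes *Pt-hh* and *Pt-Delta* were lower in *Pt-BarH1* nuclei than in *Pt-pb-A* nuclei, unlike *Pt-wnt8*. *Pt-hh* was at 10.9 (10.1–11.6) and *Pt-Delta* at 3.06 in the *Pt-pb-A* nuclei, ratios of 0.171 and 0.0934, and plexin-B (LOC107443647), a semaphorin receptor gene, at 20.6, a ratio of 0.0695. Of the 9 Notch pathway genes, 2 were at least 2 times higher and 5 were at or below 0.5 times. The shares over all genes in this comparison were 8.39% and 2.99%.

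Against *Pt-osr-B* nuclei the *labial* genes marked the difference. *Pt-lab-A* had a ratio of 6.61 (5.22–8.48) and *Pt-lab-B* of 12.3 (6.51–26.0), whereas *Pt-dll* had a ratio of 1.89 and *Pt-sp6-9* of 0.656. *Pt-mirr4* was at 4.80 in *Pt-osr-B* nuclei, a ratio of 0.111, and *Pt-AP2-A* at 1.02, a ratio of 0.283. Of 15 Wnt pathway genes, 2 were at least 2 times higher and 4 at or below 0.5 times, against 2.05% and 2.77% of all genes in this comparison.

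*Pt-scr-A* nuclei, those with a thoracic Hox gene, had the lowest *Pt-h15-1* level of the 4 sets. It was 26.1 times (22.2–31.0) and *Pt-Notch* 8.79 times higher in the *Pt-BarH1* nuclei, and *Pt-ptc* was 7.57 times higher (6.35–9.09). In the other direction, *Pt-gas1* was at 2.21 in *Pt-scr-A* nuclei, a ratio of 0.0586, and *Pt-Notum* at 4.36, a ratio of 0.0273. Of the 8 limb genes, 4 were at least 2 times higher and 0 at or below 0.5 times, against 2.67% and 1.96% of all genes.

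*Pt-otd* nuclei shared a similar *Pt-ptc* level with the *Pt-BarH1* nuclei, 3.39 and 3.21, a ratio of 0.946 (0.883–1.01). Of the 8 limb genes, 6 were at least 2 times higher in the *Pt-BarH1* nuclei and 0 at or below 0.5 times, against 1.90% and 1.93% of all genes. *Pt-sp6-9* was at 0.498 in *Pt-otd* nuclei, a ratio of 12.8 (11.5–14.3). Wnt-6 had 5 molecules in the 653 *Pt-otd* nuclei, a ratio of 51.8 (21.6–162), and *Pt-hh* was at 9.76, a ratio of 0.190.

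Within the 345 *Pt-BarH1* nuclei, the companion genes were not evenly spread. A molecule of *Pt-lab-A* or *Pt-lab-B* was found in 220 nuclei (63.8%, and 41.2% after thinning), of *Pt-dll* in 191, of *Pt-hh* in 139 (40.3%), of *Pt-osr-B* in 79 (22.9%), of Wnt-6 in 65, of *Pt-noto1* in 57, of *Pt-msx1* in 45, of *Pt-scr-A* in 22 and of *Pt-pb-A* in 15. Median depth was 10634.5 molecules in nuclei with a *labial* gene and 9818 in those without, and 10716 and 9304.5 with and without *Pt-dll*, so depth moved with both splits.

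Nuclei with a *labial* gene held more of *Pt-h15-1*. It was at 14.9 (14.4–15.4) in them and at 6.84 in the 125 without, a ratio of 2.18 (2.02–2.34). *Pt-hh* was at 2.32 against 1.01, a ratio of 2.29 (1.90–2.78), *Pt-ptc* at 3.85 against 2.04 and *Pt-opa*, a zinc finger gene of the *odd-paired* type, at 4.13 against 2.13. *Pt-Notch* differed less, at 24.2 against 16.2, and *Pt-BarH1* had a median of 8 against 5 molecules. Each level is per 10000 molecules, but whether a nucleus counts as holding a gene depends on its depth.

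Nuclei without a *labial* gene held more of another group. *Pt-sp6-9* was at 9.45 in them against 4.70, a ratio of 0.497 (0.459–0.539), and *Pt-dll* at 3.32 against 1.86. *Pt-osr-B* was at 0.992 against 0.292, a ratio of 0.294 (0.217–0.395), and *Pt-mirr4* at 0.918 against 0.320. *Pt-AP2-A* was at 0.671 against 0.0780, although 1 nucleus alone held 32 of its 109 molecules.

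A split by *Pt-dll* ran the other way for several of these genes. In nuclei with *Pt-dll*, *Pt-sp6-9* was at 9.34 (8.94–9.76) against 2.41, a ratio of 3.87, *Pt-wnt8* at 1.91 against 0.509 and Wnt-6 at 0.458 against 0.180, a ratio of 2.54 (1.67–3.99). *Pt-hh* was at 0.776 against 3.31, a ratio of 0.234 (0.196–0.279), *Pt-h15-1* at 9.49 against 15.4 and *Pt-lab-A* at 1.61 against 2.49. *Pt-BarH1* had a median of 8 molecules in nuclei with *Pt-dll* and 5.5 in those without, while its pooled level had a ratio of 0.969 (0.902–1.04).

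The split by *Pt-osr-B* went the same way as that by *Pt-dll* for some genes and the opposite way for others. Nuclei with *Pt-osr-B* held *Pt-sp6-9* at 12.5 against 4.49, *Pt-dll* at 3.87 against 1.92, shifted (LOC107442208), a secreted factor that spreads Hedgehog in *Drosophila*, at 1.08 against 0.256, and *Pt-lab-B* at 0.169 against 0.581. *Pt-GATA1* was at 0.858 in them against 2.46, a ratio of 0.349 (0.272–0.442), but had a ratio of 1.23 (1.06–1.43) in the *Pt-dll* split. *Pt-mirr4* had ratios of 2.59 and 0.848, *Pt-tbx20-A* of 0.458 and 1.51 and *Pt-echinoid* of 1.61 and 0.767 in the *Pt-osr-B* and *Pt-dll* splits. In the *Pt-osr-B* nuclei of this group 74.7% held *Pt-dll* (53.7% after thinning), and 49.6% of the others did (32.6% after thinning).

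**Figure D4:**
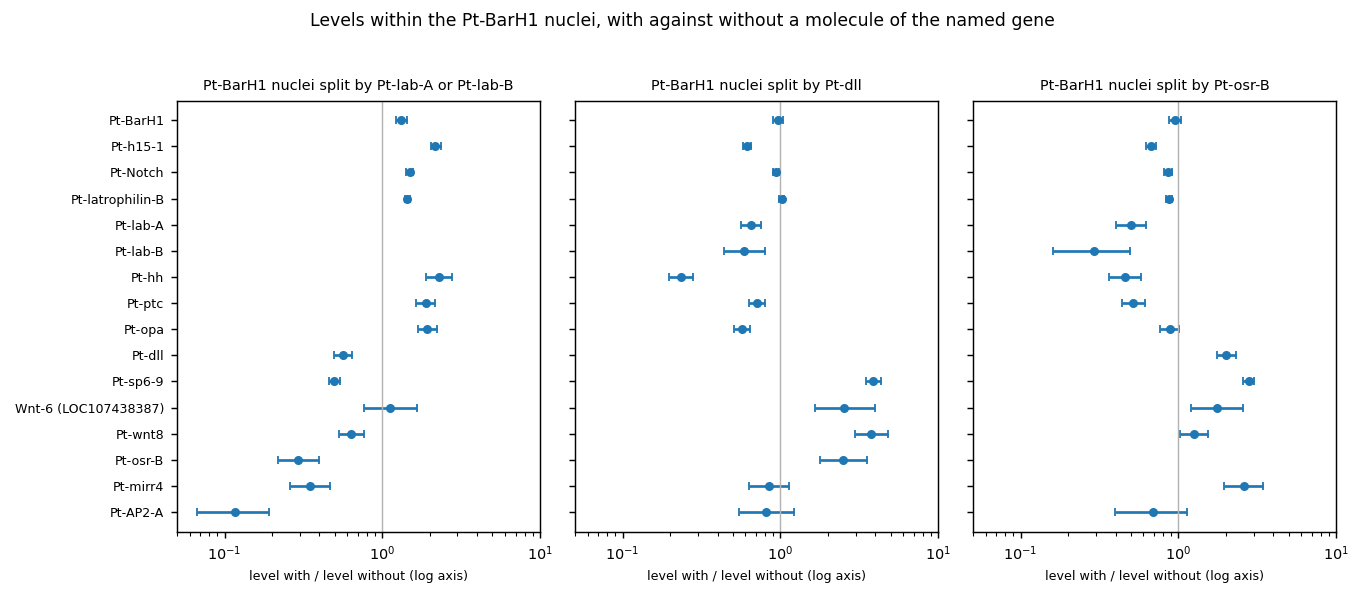
Ratio of the pooled level in *Pt-BarH1* nuclei with a molecule of the splitting gene to that in *Pt-BarH1* nuclei without it (x axis, log scale), for splits by *Pt-lab-A* or *Pt-lab-B*, by *Pt-dll* and by *Pt-osr-B*. Bars are exact 95% intervals for counting error, and the splitting gene itself is left out of its panel. *Pt-hh* stands at 2.29 in the *labial* split and at 0.234 in the *Pt-dll* split, and *Pt-sp6-9* at 0.497 and 3.87.

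Pairs of genes were counted in the same nuclei. *Pt-osr-B* and *Pt-dll* were found together in 59 nuclei, where the product of their shares gives 43.7, and after thinning in 22 where it gives 14.4. *Pt-dll* and Wnt-6 met in 48 nuclei where 36.0 are given, and in 17 against 10.9 after thinning. *Pt-osr-B* met a *labial* gene in 39 nuclei where 50.4 are given, and in 13 against 16.9 after thinning. *Pt-osr-B* and *Pt-noto1*, a homeobox gene, met in 22 where 13.1 are given. These counts describe 345 nuclei of 1 library, in which deeper nuclei hold more of both genes.

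Of the genes that the study had grouped with *Pt-BarH1* by the shape of their profiles along the axis of these same nuclei, and which are therefore no independent evidence, 3 of 7 were at least 2 times higher and 0 at or below 0.5 times, with a median ratio of 1.77. Beside *Pt-frizzled4*, these were LOC107445973, at 0.874 against 0.276, and *Pt-seven-up-A*, a nuclear receptor gene, at 0.741 against 0.360. LOC107445280 was at 10.0 against 5.66, a ratio of 1.77. Among all genes, 0.580% were at least 2 times higher and 3.24% at or below 0.5 times.

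Cells gave a reading that the rule had not used, on few barcodes. In stage-7_cell, 65 cells held 1 or more molecules of *Pt-BarH1* within the other limits (median depth 8962), and 684 cells (median 8663) formed the comparison. *Pt-h15-1* was 6.01 times (4.39–8.16), *Pt-Notch* 3.36 times (2.80–4.01), *Pt-latrophilin-B* 2.63 times (2.30–2.99) and *Pt-lab-A* 4.23 times (2.16–7.89) higher in the cells with *Pt-BarH1*. Wnt-6 had 9 molecules in them and a ratio of 7.22 (2.72–18.2). *Pt-gas1* (0.256), *Pt-Notum* (0.182) and *Pt-wnt5* (0.138) were low in the cells too, whereas *Pt-hh* had a ratio of 0.945 (0.645–1.34).

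Of the 61 genes at least 2 times higher in the *Pt-BarH1* nuclei, 27 had 50 or more molecules in the cells, 23 of these had a ratio above 1, 12 were at least 2 times higher and 2 were at or below 0.5 times, with a median ratio of 1.81. Over all 7597 genes compared in the cells, 0.895% were at least 2 times higher and 9.40% at or below 0.5 times, and the median ratio was 0.955. Of the 341 low genes, 132 could be compared, 86 were at or below 0.5 times and 9 had a ratio above 1, with a median ratio of 0.353. The markers of cluster 3 moved with this comparison, since 4 of 5 were at or below 0.5 times in the cells with *Pt-BarH1*, as were 3 of 3 endoderm and extraembryonic markers with enough molecules, and their part in it was not tested.

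In the late stage-5 nuclei, the same rule gave 926 nuclei (median depth 5462.5 molecules) and 2305 comparison nuclei (median 5201). *Pt-h15-1* was at 14.8 per 10000 molecules in them and at 1.26 in their comparison nuclei, a ratio of 11.8. *Pt-lab-A* had a ratio of 7.22, *Pt-latrophilin-B* of 4.41 and TIKI2 of 4.69. *Pt-Notch* had a ratio of 1.96, below its 5.89 at stage 7. Stage, egg sac and library cannot be told apart here. The 926 nuclei held 9821 of the 21647 *Pt-BarH1* molecules of the late stage-5 library, against 3026 of 4042 at stage 7. The study lists *Pt-otd* as a marker of the periphery at late stage 5 and of the head at stage 7. The same limits therefore need not choose the same population at both stages.

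Some genes had larger ratios in the late stage-5 nuclei. *Pt-prd1* was at 0.282 (0.238–0.332) against 0.0190, a ratio of 14.8, *Pt-tbx20-A* had a ratio of 12.8 and *Pt-opa* of 4.62, where the stage-7 nuclei gave 2.91, 1.52 and 0.809. *Pt-gas1* (0.115), *Pt-AP2-A* (0.179) and *Pt-wnt5* (0.0719) were low at both stages. Of the 61 high genes, 48 had 200 or more molecules in the late stage-5 library, 37 of them had a ratio above 1, 16 were at least 2 times higher and 4 were at or below 0.5 times, with a median ratio of 1.64. Over all 9596 genes compared there, 0.417% were at least 2 times higher and 2.27% at or below 0.5 times. Of the 341 low genes, 168 could be compared, and 76 were at or below 0.5 times. The markers of cluster 3 moved here too, with 4 of 5 at or below 0.5 times, and their part was not tested.

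**Figure D5:**
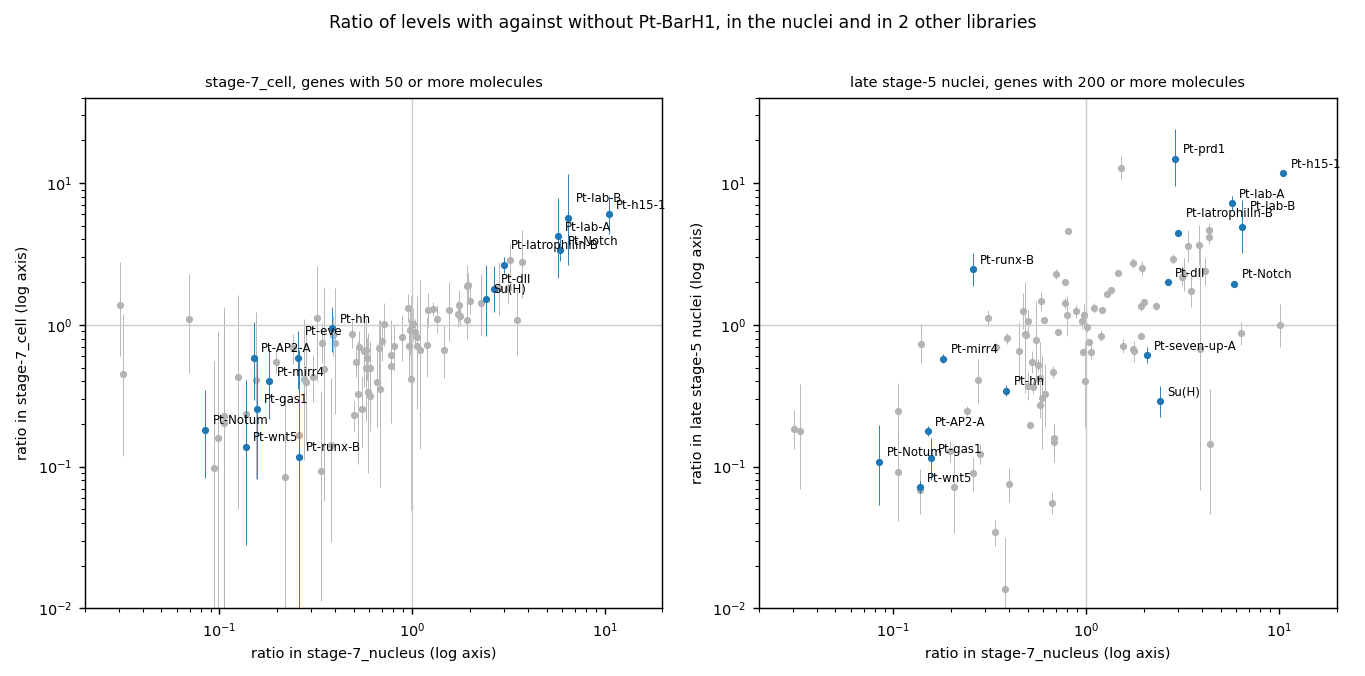
Ratio of pooled levels with against without *Pt-BarH1* in stage-7_cell (left) and in late stage-5 nuclei (right) on the y axis, against the ratio in stage-7_nucleus on the x axis, both on log scales. Each point is a named gene outside the rule with 50 or more molecules in the cells or 200 or more in the late stage-5 nuclei, vertical bars are exact 95% intervals for counting error and may run past the axis, genes at 0 are not drawn, and blue points carry their names. *Pt-h15-1* stands at 6.01 in the cells and 11.8 in the late stage-5 nuclei, and *Pt-Notch* at 3.36 and 1.96.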

How the data were processed

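The authors made the libraries with the BD Rhapsody whole-transcriptome kit, aligned the reads with STAR 2.5.2b to assembly Ptep_3.0 and counted molecules per gene and barcode, introns included for nuclei. The deposited counts of the filtered barcodes (for nuclei, more than 2000 genes and fewer than 20000 molecules, the only treatment of doublets) were used as they are, and the deposited log values were not used. A level is the pooled molecules of a gene per 10000 molecules of a group. Levels carry exact Poisson intervals, shares exact binomial (Clopper-Pearson) intervals and ratios exact conditional intervals, all at 95%. Genes with 200 or more molecules over all filtered nuclei were compared (50 or more in cells, 200 or more in late stage-5 nuclei). These minimums held for counts of genes, and some single ratios of named genes below them are also given. A fold of 2, not a test, separated genes, and a group at 0 was ranked at a floor of 3 molecules. Shares were also taken after thinning each nucleus to 3000 molecules (seed 11). Named genes are those of 15 lists, the 20 highest and 10 lowest ratios, and the 5 highest and 5 lowest against each neighbouring set. Members, lists and rules were chosen with earlier results of these data known. Gene products and neighbours come from the annotation of CAS_Ptep_4.0. Python 3.11.15 with numpy 2.4.6 and scipy 1.17.1 was used. The ratio script was run on simulated counts that held counting noise only. In these, 47 to 50 of each 50 genes changed 3-fold or 4-fold passed the fold of 2. So did 74 of 10325 unchanged genes, in either direction. Alternatives covered the comparison nuclei, depth, the *Pt-BarH1* minimum, pooling, the filter, thinning, the gene minimum and the fold.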

Additional observations from a re-analysis of the deposited data

Results flagged for a closer look

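Among named genes past a fold of 2 at stage 7 in either direction, with the counting interval clear of 1, there were 6 whose counting interval in another library lay wholly on the other side of 1. The difference between libraries was not tested, since each condition has 1 library. In late stage-5 nuclei *Pt-runx-B* had a ratio of 2.46 (1.88–3.21), against 0.258 at stage 7. There the Suppressor of Hairless gene LOC107441688 had a ratio of 0.290 (0.224–0.371) against 2.42, *Pt-seven-up-A* of 0.613 (0.539–0.696) against 2.06, and LOC107436289 of 0.145 (0.0460–0.353) against 4.39. FoxB1-like (LOC107443349) had 0 molecules in the late stage-5 nuclei with *Pt-BarH1* and 12 in their comparison nuclei, a ratio of 0 with an upper limit of 0.848, against 3.72 at stage 7. In stage-7_cell, Wnt-11 (LOC107449252) had a ratio of 10.4 (1.94–56.0) on 4 molecules in each group, against 0.447 in the nuclei. The minimum of molecules in the other library was not applied to these 6 genes, and Wnt-11 was below it.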

How the results depend on the processing

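No paired analysis was possible because each condition has 1 library and no test was made. The counts of genes (61 and 341) moved most with the minimum and the fold: with 50 molecules they were 226 and 843, with 1000 molecules 21 and 137, with a fold of 1.5 they were 262 and 691, with a fold of 3 they were 23 and 173, and with counts thinned to 3000 molecules 183 and 662. With 6 or more *Pt-BarH1* molecules, 207 nuclei were left. Limits on *Pt-otd* and *Pt-six3-1* in the comparison nuclei, a depth of 8000 or more molecules, a minimum of 2 or 6, the mean over nuclei, all barcodes before the filter and, chosen after seeing the data, fewer than 10 molecules of the cluster 3 markers left the counts between 46 and 83 and between 236 and 480. Among named genes, 26 to 28 of 28 kept a ratio of 2 or more and 50 to 53 of 53 a ratio of 0.5 or less under these settings and thinning. Of 128 named ratios, 2 to 42 moved beyond their counting interval, by setting, and only LOC107444647 reversed, to a ratio of 0 after thinning, on 5 molecules. Genes with few molecules are limited by depth.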

Other observations

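Non-coding RNAs of the Hox regions, chosen after their values were seen, did not all follow the Hox gene beside them. LOC107455688 lies between *Pt-lab-A* and *Pt-pb-A* in CAS_Ptep_4.0 and was at 1.14 (1.03–1.25) per 10000 molecules in the *Pt-BarH1* nuclei against 0.260 in the comparison nuclei, a ratio of 4.37, near the 5.70 of *Pt-lab-A* and unlike the 0.349 of *Pt-pb-A*. In *Pt-BarH1* nuclei with a *labial* gene it was at 1.45, and at 0.560 in those without. LOC107444121 overlaps Hox-C4 (LOC107444120) there and had a ratio of 6.34 (5.14–7.79), at 0.373 against 0.0589, while Hox-C4 had 10 molecules and a ratio of 0.155 (0.0739–0.286). *Pt-osr-B* nuclei held LOC107444121 at 0.376, a ratio of 0.994 (0.761–1.30). In the *Pt-dll* split it was at 0.527 with and 0.168 without. Whether the counting used strand is not given in the sources used here, so reads of LOC107444121 and Hox-C4 in the overlap cannot be told apart. Of the other named non-coding RNAs of these regions, LOC107447497, LOC107447501 and LOC107447506 had ratios of 0.0937, 0.0694 and 0.134.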
